A study of Mus musculus with 2 samples.

Results

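The cytoplasmic ribosomal protein genes were taken as the gene rows whose symbol is Rpl or Rps followed by a digit, or is Rplp0, Rplp1, Rplp2 or Rpsa, leaving out symbols with -ps and those that start with Rps6k. This gave 86 of the 32285 genes in the tables. By their names, 43 encode proteins of the large subunit, 31 proteins of the small subunit and 3 the acidic stalk of the large subunit (Rplp0, Rplp1 and Rplp2). A further 8 are paralogs or relatives (Rpl10l, Rpl22l1, Rpl36al, Rpl39l, Rpl3l, Rpl7l1, Rps27l and Rps27rt), and 1, Rps19bp1, encodes a binding protein of RPS19 and no ribosomal protein.

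The single-cell RNA-seq data came from cells of the brain sorted as viable CD45+ cells from 4 control mice and 4 Arpc4dCx3cr1 (KO) mice, littermates on a C57BL/6J background and 12 weeks of age. Both groups carried floxed Arpc4 alleles (Arpc4 fl/fl), and the KO mice also carried 1 copy of a Cre transgene driven by the Cx3cr1 promoter, which is active in microglia and other brain myeloid cells, whereas the controls had no Cre. Arpc4 encodes a subunit of the Arp2/3 complex, which nucleates branched actin filaments. The cells of each mouse were tagged and all 8 mice were pooled into 1 library, so the mice are the replicates and shared the steps after tagging.

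A ribosome is built from ribosomal RNAs and one copy of most ribosomal proteins, with more copies only in the stalk, where elongation factors bind. The messenger RNAs of these proteins are short and abundant, and most start with a run of pyrimidines at the 5′ end (a 5′ TOP tract), through which their translation follows nutrient and growth signals via mTOR. Adult microglia rest at low rates of division, whereas lymphocytes and monocytes are known for a large share of such transcripts.

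Sequences are shown around the transcript start, where 5′ TOP tracts are known to lie. They are those of the 5 members with the largest and the 5 with the smallest or negative difference between genotypes in microglia. Each is 30 bases of the strand of the gene from RefSeq on GRCm38.p6, 5′ to 3′, with the annotated first base of the transcript at position 16. Capitals mark the longest run of C and T of at least 5 bases that lies anywhere in the window. Of the marked runs, only that of Rpl38 covers position 16. Whether the annotated starts are those used in these cells was not examined.
Rpsa, chr9:120127751-120127780 (+): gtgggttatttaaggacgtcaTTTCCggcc
Rpl23, chr11:97782425-97782454 (-): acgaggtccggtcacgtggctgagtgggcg
Rps28, chr17:33824548-33824577 (-): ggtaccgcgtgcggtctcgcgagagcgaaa
Rpl22l1, chr3:28805493-28805522 (+): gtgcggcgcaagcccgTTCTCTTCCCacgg
Rpl38, chr11:114668565-114668594 (+): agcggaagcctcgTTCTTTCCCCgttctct
Rpl4, chr9:64173372-64173401 (+): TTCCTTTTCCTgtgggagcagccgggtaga
Rpl36al, chr12:69184053-69184082 (-): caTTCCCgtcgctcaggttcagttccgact
Rpl39l, chr16:10170213-10170242 (+): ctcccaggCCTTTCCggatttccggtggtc
Rpl7l1, chr17:46782642-46782671 (-): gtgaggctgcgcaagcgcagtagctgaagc
Rps19bp1, chr15:80264292-80264321 (-): cagggcggaagtagctcgccgcgtgtgggc

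Of the 86 members, 66 had an entry in the RefSeq promoter table. A gene counted as having a feature if any of its listed starts had it, so the percentages depend on the number of starts listed. A run of at least 8 C or T bases lay in a 30-base window of 27 of them (40.9%) and in 13.9% of all 27018 genes in the table. An annotated first base was C or T in 48.5% of the members and 33.2% of all genes. Over the 300 bases from 250 before the start, read on both strands, GGAAG was present in 92.4% of the members and 73.9% of all genes, ATGGC in 57.6% and 44.2%, and TATAAA in 10.6% and 15.7%. The median log2 fold change in KO microglia was 0.91 over the 27 tested members with the run and 0.88 over the 37 without it.

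The tables of the mice held 19864 barcodes, none of them in more than 1 mouse, and 19863 were kept, with 200 or more genes and no more than 20% of their UMIs on mitochondrial genes. A UMI is a tag that marks 1 captured transcript molecule. The deposited cells were clustered without the member genes, so that these genes had no part in forming the cell types, and the clusters were named from marker lists. The microglia-like cells (microglia below) were 7769 control and 8004 KO cells in 11 clusters. Clusters 1, 2, 4 and 7 held most of the control cells, and clusters 0, 3 and 5 most of the KO cells, so the genotypes were compared across different states of 1 class. Microglia markers summed to 22872 to 23280 counts per 1000000 UMIs (CPM) in the control sums and to 9072 to 13487 CPM in the KO sums, and all 12 were detected in every sum. The 3 clusters that stayed unnamed held 1021 control and 1742 KO cells. Arpc4 itself was at 241, 223, 232 and 233 CPM in control microglia and at 146, 146, 138 and 131 CPM in KO microglia, without overlap. In the CAMs (CNS-associated macrophages), monocytes and T cells Arpc4 overlapped between genotypes. Whether these UMIs came from intact or recombined alleles was not examined, so they do not measure the deletion. By flow cytometry, the paper reports that ARPC4 and ARPC2 protein were efficiently depleted in KO microglia.

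One KO mouse stood apart from the rest. Xist was at 1407 CPM in KO microglia of replicate 1 and at 3.55 to 14.5 CPM in the other 7 mice, and Ddx3y was at 4.23 CPM against 66.4 to 83.8 CPM. The methods of the study give 1 of the KO mice as female and the other mice as male, and state that the female was left out of the study's analysis, while the labels do not say which it was. Cluster 5, led by Xist, held 1634 cells, of which 1592 came from this mouse, and its member share was 11.0%. Without this mouse, 81 members were higher in KO microglia, as with it, and the difference in share was 4.999 points. In the genotype comparisons of other types described further on, 1 member was higher in KO T cells with and without it, 66 members were lower in KO monocytes with it and 56 without it, and its effect in CAMs is given there.

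In microglia, members took a larger share of the UMIs on genes in the KO mice than in the controls. The share was 6.83%, 6.69%, 6.87% and 6.47% in the control mice and 11.4%, 10.96%, 12.4% and 11.8% among the KO mice. The lowest KO mouse lay above the highest control, and the means were 6.71% ± 0.184 (SD, n = 4) and 11.6% ± 0.597 (SD, n = 4), a difference of 4.91 percentage points and a ratio of 1.73. The sums held 4190973 to 9678378 UMIs per control mouse and 8768143 to 10867257 UMIs per KO mouse, of which 286261 to 647157 and 961316 to 1342181 fell on members, so counting error was small beside the spread between mice.

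Both parts of the share moved. A control microglia cell held on average 288, 286, 282 and 262 member UMIs, and a KO cell 579, 501, 624 and 632. UMIs on the other genes were 3924, 3994, 3827 and 3788 per cell in the controls and 4513, 4066, 4430 and 4712 in the KO mice. Neither pair of groups overlapped, and the member UMIs differed by the larger factor. The difference was present at each depth of the cells. In cells of 2000 to 4000 UMIs the share was 7.28% to 7.68% in the controls and 12.6% to 13.2% in the KO mice, and in cells of at least 8000 UMIs it was 6.21% to 7.15% and 9.88% to 11.5%.

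Other features of the libraries moved with the genotype too. The mitochondrial share of microglia was 0.542% to 0.597% in the controls and 1.06% to 1.27% in the KO mice. The nuclear RNAs Malat1 and Neat1 took 2.47% to 2.60% and 2.16% to 2.35%, and genes that span over 50 kb took 33.7% to 34.2% and 30.6% to 32.8%. In barcodes of 1 to 100 UMIs, taken as empty droplets, members took 12.9% of the UMIs, above the share in control microglia. T cell markers, whose cells are rich in members, summed to 2.44 to 4.29 CPM in control and 2.80 to 3.65 CPM in KO microglia, while monocyte markers summed to 269 to 346 and 602 to 778 CPM. That list is not specific to monocytes, as it summed to 8095 to 13988 CPM in control CAMs and 5839 to 7572 CPM in control monocytes. Of its genes viewed singly, Plac8 had medians of 2.49 CPM in control and 2.00 CPM in KO microglia, and Ly6c2 0.50 and 0.44 CPM. The difference in share was 5.01 points with mitochondrially encoded genes left out of the total, 5.46 and 6.56 points with ambient RNA subtracted at 10% and 25%, and 6.90 points without genes over 50 kb. The subtraction took the same profile at the same fraction from every mouse. It widens a difference in points by construction and cannot show the part of ambient RNA. Leaving genes out of the total raises the share in both groups. Without genes over 50 kb the means were 10.2% in the controls and 17.1% in the KO mice, so these points are not on a like scale. The part of the nuclear RNAs and of the monocyte markers was not tested.

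**Figure D1:**
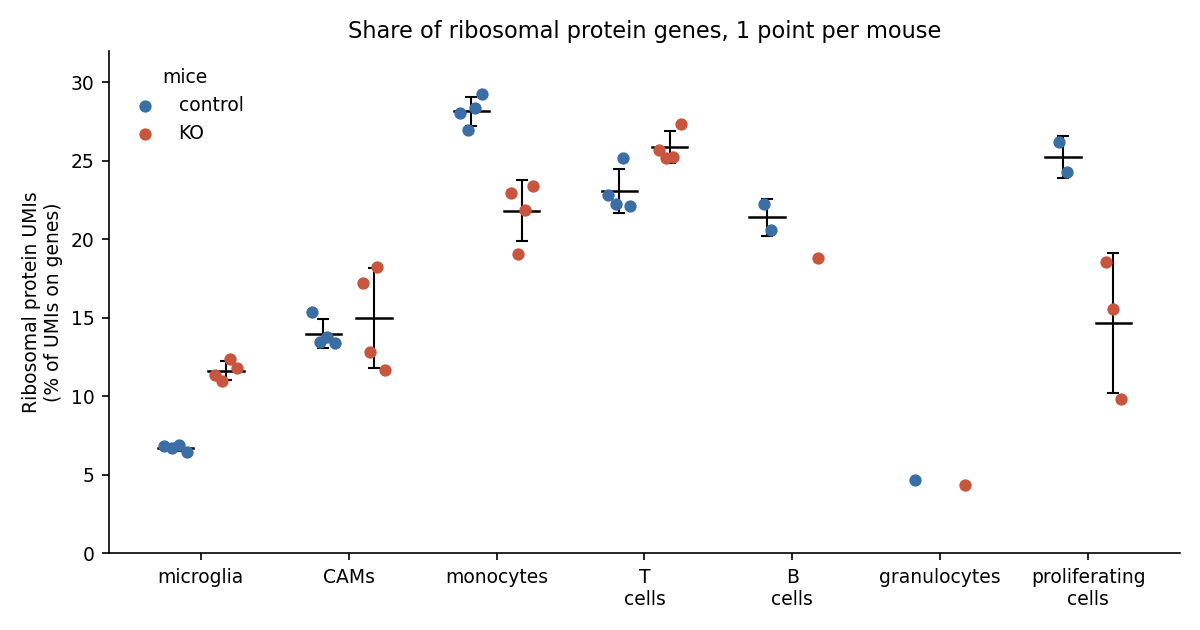
Share of ribosomal protein UMIs among the UMIs on genes (%, y axis) in 7 cell types (x axis), with 1 point per mouse of at least 10 cells of the type, and the mean ± SD where a group had at least 2 mice. Control and KO mice do not overlap in microglia (6.47% to 6.87% and 10.96% to 12.4%) or in monocytes, where the KO mice lie lower, and they overlap in CAMs.

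The subunits moved together. Large subunit genes took 3.26% to 3.44% of the UMIs in control and 5.49% to 6.22% in KO microglia, and small subunit genes 2.78% to 2.97% and 4.84% to 5.43%. The stalk genes took 0.354% to 0.387% and 0.519% to 0.583%. None of the groups overlapped.

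Tested gene by gene on the sums per mouse, nearly all members were higher in KO microglia. With edgeR's quasi-likelihood test and Benjamini-Hochberg adjustment over all 12639 genes tested (adjusted p under 0.05), 81 of the 84 members tested were higher, against 22.5% of all genes, and 1 was lower, against 22.7% (45.2% of all genes passed in either direction). The 81 were all 43 genes of the large subunit, all 31 of the small subunit, the 3 stalk genes and 4 of 6 paralogs. In each of the 81 the lowest KO mouse lay above the highest control, as in 21.4% of all genes. The median log2 fold change was 0.88 over the members and -0.01 over all genes. Of the 81 rises, 22 were over 1 on the log2 scale, 77 over 0.5, and the quartiles were 0.77 and 1.01. In such sums, fewer cells of a state and less RNA of a gene per cell cannot be told apart.

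Of the small subunit, Rpsa, which encodes a protein that is also known as the laminin receptor precursor, changed most. Rpsa (ENSMUSG00000032518, chr9:120127689-120132369 on mm10) was at 642, 627, 672 and 613 CPM in the control mice and at 2113, 1688, 2017 and 1908 CPM in the KO mice. All KO values were above all control values, and the log2 fold change was 1.60 (SE 0.075), a 3.02-fold rise with edgeR adjusted p = 1.78e-07. Rps28, a small protein near the mRNA exit of the small subunit, was at 646, 645, 674 and 615 CPM in the controls and 1408, 1386, 1646 and 1574 CPM in the KO mice, a log2 fold change of 1.22. Rps18, a protein of the head of the small subunit, was at 512, 471, 499 and 456 and at 1106, 961, 1125 and 1088 CPM, a log2 fold change of 1.14. Neither gene overlapped between groups. The smallest rise of the subunit was 0.71, of Rps3, a protein at the mRNA entry that also takes part in DNA repair, and the median was 0.93.

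Of the large subunit, Rpl23, a protein known also to bind MDM2 when it is free of the ribosome, rose most. It was at 1304, 1266, 1307 and 1200 CPM in the controls and 2899, 2758, 3326 and 3155 CPM in the KO mice, a log2 fold change of 1.26 (SE 0.070). Rpl38, a protein known for its part in the translation of Hox mRNAs in the embryo, was at 543, 512, 540 and 510 and at 1126, 1060, 1285 and 1200 CPM, a log2 fold change of 1.15. These groups did not overlap, and both genes were highest in KO replicate 3. Rpl41, which encodes one of the smallest known proteins, was at 782 to 836 CPM in the controls and 1579 to 1973 CPM in the KO mice, and Rpl36a, of the X chromosome, at 271 to 286 and 560 to 706 CPM. Their log2 fold changes were 1.15 and 1.14. At the other end stood Rpl4, a protein that lines the exit tunnel, with 177, 176, 186 and 171 CPM in the controls and 246, 222, 253 and 250 CPM in the KO mice. Its log2 fold change of 0.45 was the smallest of the subunit, whose median was 0.86, and its groups did not overlap either.

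The stalk genes rose unequally. Rplp0, the base of the stalk, was at 726, 679, 722 and 667 CPM in the controls and 1248, 1067, 1283 and 1172 CPM in the KO mice, a log2 fold change of 0.77. Rplp1 was at 2279, 2124, 2278 and 2037 and at 2823, 2982, 3309 and 3165 CPM, a log2 fold change of 0.49. Rplp2, its partner in the stalk dimers, was at 727, 711, 743 and 670 and at 1310, 1280, 1513 and 1411 CPM, a log2 fold change of 0.95. All 3 kept the groups apart.

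The paralogs split. Rpl22l1, the paralog of Rpl22 known for roles in blood cell development and splicing, was at 152, 145, 148 and 135 CPM in the controls and 290, 300, 394 and 356 CPM in the KO mice, a log2 fold change of 1.21 (SE 0.097). Its groups did not overlap, and Rpl22 itself had a log2 fold change of 0.93. Rps27rt rose by 0.86, Rps27l, which is a known target of p53, by 0.49, and Rpl36al by 0.37, with no overlap in any of them. Rps27rt is a copy of Rps27 without introns, so its reads may come in part from Rps27, and Rpl36al and Rpl36a are close in sequence.

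Rpl7l1, a relative of Rpl7 with a role in ribosome assembly, was at 92.7, 87.2, 96.3 and 93.3 CPM in the controls and 87.9, 90.6, 85.6 and 85.4 CPM in the KO mice. The groups overlapped, with a log2 fold change of -0.08 and edgeR adjusted p = 0.215. Rpl39l, known from the testis, lay between 2.03 and 8.74 CPM in the controls and between 1.94 and 9.90 CPM in the KO mice, and its log2 fold change of -0.04 had an SE of 0.551. Its depth could not show a difference of the size seen in the other members. Rpl10l, also known from the testis, had no UMI in microglia, and Rpl3l, known from muscle, had 1 in the controls and 5 in the KO mice. Both were below the filter.

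Rps19bp1, the member that encodes no ribosomal protein, was the only one lower in KO microglia, at 41.0, 38.5, 36.0 and 36.1 CPM in the controls and 34.0, 32.9, 30.6 and 34.0 CPM in the KO mice. The groups did not overlap, but the log2 fold change of -0.20 (SE 0.069) had an edgeR adjusted p of 0.0359, and the call was lost on leaving out control replicate 1 or 2 or KO replicate 2, 3 or 4, with adjusted p-values of 0.054 to 0.083, and with DESeq2 (0.113).

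**Figure D2:**
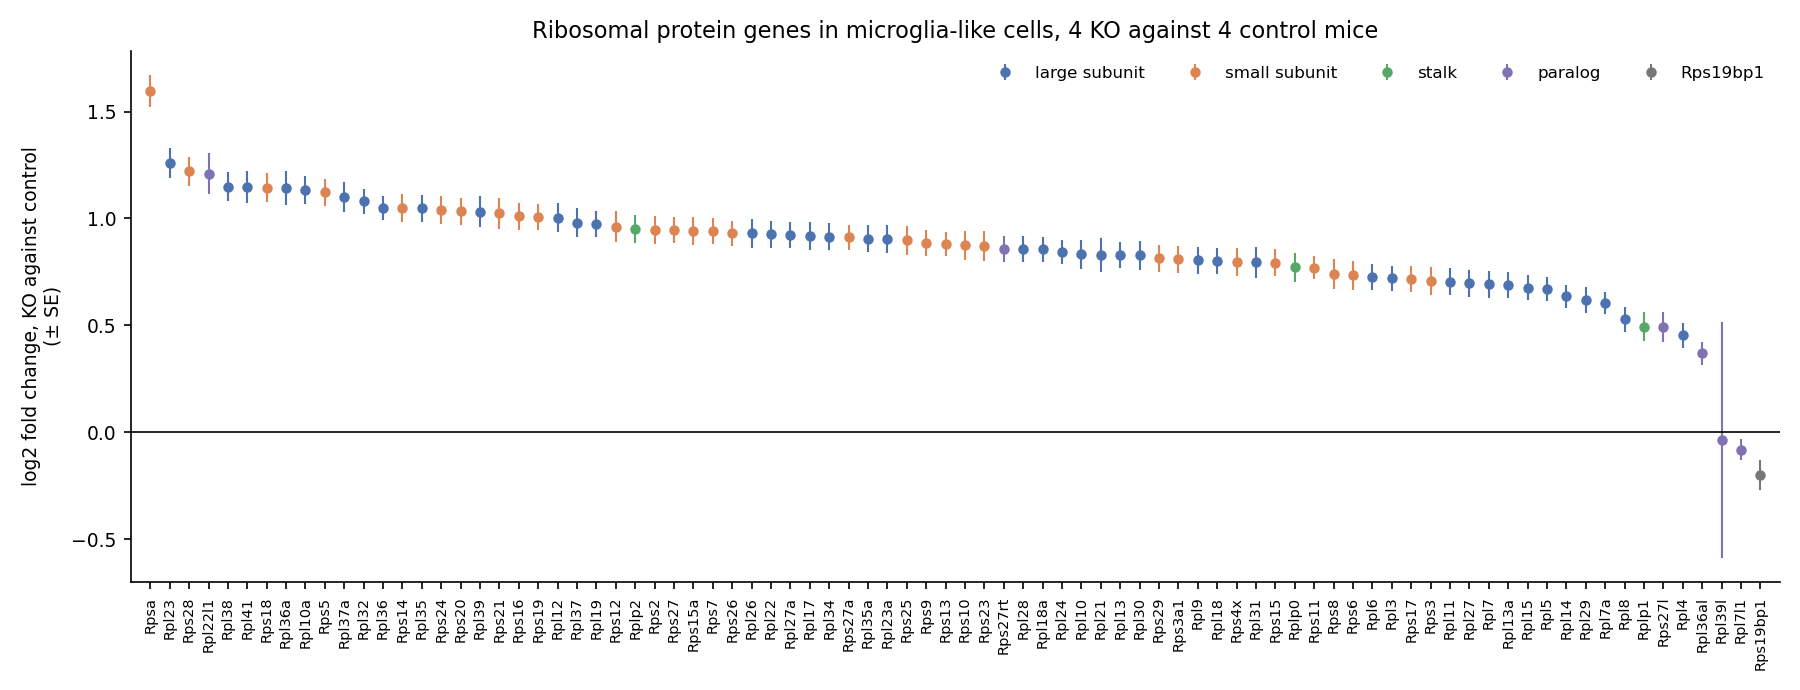
Log2 fold change of KO against control microglia (y axis, points, bars are ± SE) for each of the 84 members tested (x axis, ordered by the change), coloured by subunit. Rpsa stands at 1.60 above the rest, 81 members lie above 0, and Rpl39l has the widest bar (SE 0.551).

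The rise was not the same for every member. Summed over the members, the CPM was 64786 in the controls and 120589 in the KO mice, a log2 difference of 0.90. In a fit scaled to this sum, chosen after the data had been seen, 44 of the 84 members differed from it by edgeR's adjusted p. Of these, 20 lay above the sum, against 5.44% of all genes, and 24 below, against 83.9% (89.3% in either direction). Of the large subunit 10 lay above and 13 below, of the small subunit 9 above and 5 below, and of the stalk 2 below. Rpsa was furthest above, at 0.70 on the log2 scale, followed by Rpl23 at 0.36 and Rps28 at 0.32. Among the ribosomal proteins in the narrow sense, Rpl4 at -0.44, Rplp1 at -0.40 and Rpl8 at -0.37 lay furthest below, and the paralog Rpl36al was at -0.53.

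In the full GENCODE vM21 annotation, other genes overlap many members. Which of these genes were in the reference used for counting was not examined. On the same strand 35 members overlap another gene, mostly small nucleolar RNAs in their introns, among them Rpsa (Snora62) and Rpl23 (Snora21), and on the other strand 24 do, for which the use of strand in counting was not given in the sources used here.

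The share also varied among the states of microglia. Over all cells of a cluster it ran from 5.09% in cluster 1, made mostly of control cells, to 20.9% in cluster 9, which is led by Cst7, Spp1 and Apoe and made mostly of KO cells. These genes are known from microglia near disease or in development. The cluster led by Cxcl10 and Ifit3, genes of the interferon response, was at 10.9%, and the cluster led by Ccl3, Ccl4 and Egr1 at 9.60%. Clusters 8 and 11, unnamed and with medians of 1203 and 1158 UMIs per cell, held 1.73% and 2.23%. The clusters also differed in RNA makeup. In control mice, genes over 50 kb took 41.2% to 41.5% in cluster 1 and 18.0% to 18.5% in cluster 7. Member shares there were 4.85% to 5.20% and 9.40% to 10.1%. Clusters 2 and 4 lay between on both, while cluster 13 was out of this order. Malat1 and Neat1 took 0.253% to 0.439% in cluster 9 and 4.42% to 7.57% in clusters 8 and 11. The part of this makeup was not tested.

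Within clusters, the KO mice were higher in several. In cluster 0 the share was 7.21% to 8.17% in the 4 control mice (88 cells) and 9.02% to 10.4% in the 4 KO mice (2673 cells). In cluster 16, which held 102 control and 118 KO cells, it was 7.36% to 9.72% and 10.5% to 12.4%. In neither did the groups overlap. The cells of cluster 0 were not of like depth, with medians of 8943 to 10504 UMIs in the control mice, 9817 in KO replicate 1 and 5233 to 5727 in the other KO mice, and microglia markers took 1.49% to 1.63% of the UMIs in the controls and 1.06% to 1.198% in the KO mice. In cluster 16 the median depth overlapped (4743 to 5578 and 4756 to 5333 UMIs). The groups were also apart in cluster 3 (11.9% to 12.9% in 2 control mice of 5472 and 6600 UMIs per cell, 14.3% to 15.3% in 4 KO mice of 3672 to 4066) and cluster 10 (7.58% to 8.59% in 2 control mice, 10.5% to 11.7% in 4 KO mice). The part of depth and of the markers within clusters was not tested.

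In clusters 1, 6, 8 and 13 the groups overlapped. Cluster 13 had 9.21% to 10.5% in 3 control mice and 8.78% to 9.95% in 3 KO mice. The unnamed cluster 6, which is led by Ms4a7 and hemoglobin genes and to 97.0% from KO mice, had 11.2% to 14.5% in 2 control mice and 12.7% to 14.6% in 4 KO mice. Its hemoglobin came from KO replicate 1, at 2.66% of the UMIs, against 0.000373% to 0.000655% in the other KO mice. The paper describes KO cells high in Ms4a7 as a subpopulation of microglia. With cluster 6 added to the microglia, a setting chosen after the data had been seen, the difference in share was 5.04 points. Cluster 1 had 4.85% to 5.20% in 4 control mice and 5.03% to 6.16% in 2 KO mice. Clusters 2, 4 and 7 had 1 KO mouse of at least 10 cells each, the same animal (replicate 2), at 8.17%, 9.49% and 12.7%, above the control mice of the same cluster. Clusters 9 and 11 had 1 control mouse each: in cluster 9 it lay below the 4 KO mice (18.8% against 19.3% to 23.985%), and in the unnamed cluster 11 above them (2.63% against 2.08% to 2.60%).

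**Figure D3:**
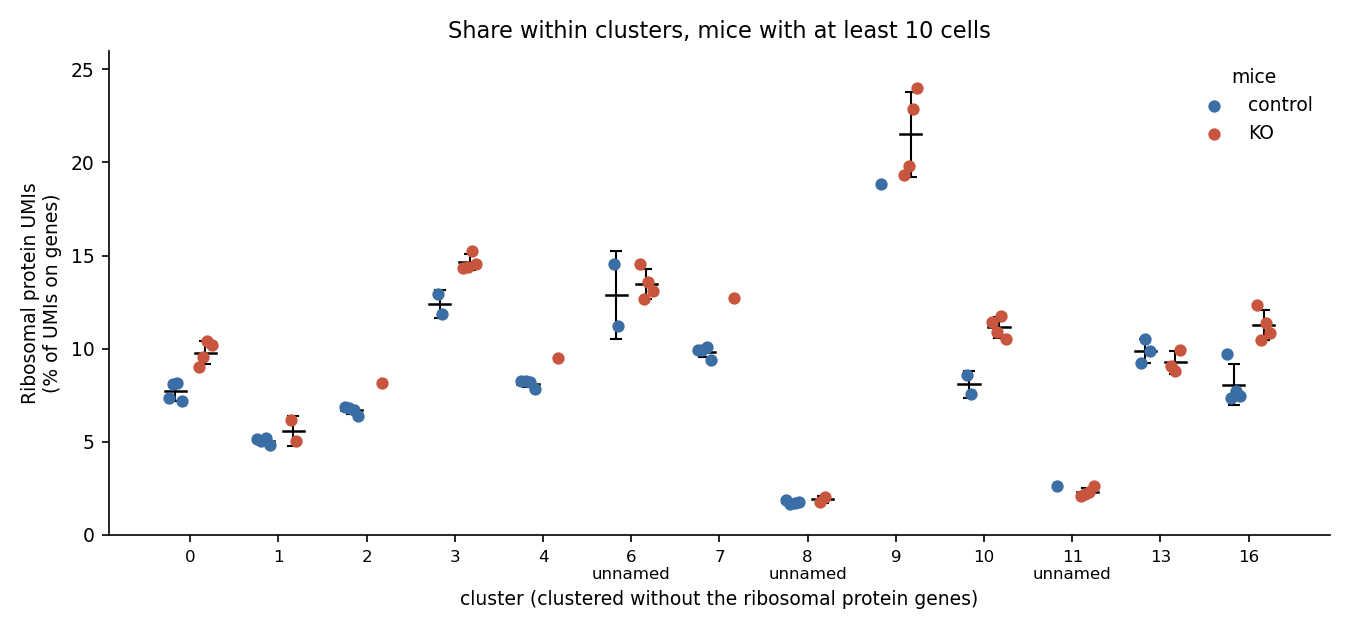
Share of ribosomal protein UMIs (% of UMIs on genes, y axis) per mouse within the clusters of microglia and unnamed cells (x axis), for mice with at least 10 cells in the cluster, and the mean ± SD where a group had at least 2 mice. Control and KO mice lie apart in clusters 0, 3, 10 and 16 and overlap in clusters 1, 6, 8 and 13.

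Genes with related roles did not all move like the members. Of ribosomal genes that the naming rule misses, Fau, which encodes a small subunit protein fused to a ubiquitin-like protein, rose by 0.97 on the log2 scale, and Rack1, a scaffold on the small subunit, rose by 0.82. Fau was at 2356 to 2597 CPM in the controls and 4612 to 5378 CPM in the KO mice. Of 11 elongation factors 8 rose and 1 fell, with a median of 0.48: Eef1b2, an exchange factor of the elongation factor that brings in tRNA, rose by 0.86 from a mean of 340 to 617 CPM, and Eef2k, the kinase that inhibits eEF2, fell by 1.01, from 132 to 145 CPM to 54.1 to 82.3 CPM.

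The lists further from the ribosome itself had medians nearer to 0. Of 36 initiation factors 9 rose and 8 fell (median -0.09), with Eif3k at 0.65 and Eif4g2 at -0.65. Of 40 ribosome biogenesis genes 3 rose and 8 fell (median -0.07), with Nop2, a methyltransferase of ribosomal RNA, at -0.75 and Bysl, an assembly factor of the small subunit, at -0.68. Of 78 genes of the mitochondrial ribosome 8 rose and 20 fell (median -0.08), with Mrps2 at -0.53 and Mrps11 at -0.49. Over all genes, 22.5% were called higher and 22.7% lower, with a median of -0.01.

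Of the mTOR and Myc pathway, 3 of 32 tested genes rose and 6 fell (median -0.10). Mycl, a member of the Myc family, fell by 3.26 on the log2 scale, from 6.05 to 8.06 CPM to 0.386 to 1.51 CPM, and Mxd1, a partner of Max that opposes Myc, fell by 0.67. Host genes of small nucleolar RNAs, many of them with 5′ TOP starts, rose in part. Of 11 tested, 7 rose and 0 fell (median 0.46). Zfas1 was at 33.7 to 39.3 CPM in the controls and 99.0 to 120 CPM in the KO mice (log2 fold change 1.64), and Gas5, which is known to build up when growth stops, rose by 1.27. The 3 ribosomal pseudogenes tested rose (median 0.81), Rpl36a-ps1 by 1.26 and Rpl9-ps6 by 0.81, and reads of the parent genes may be counted in them.

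**Figure D4:**
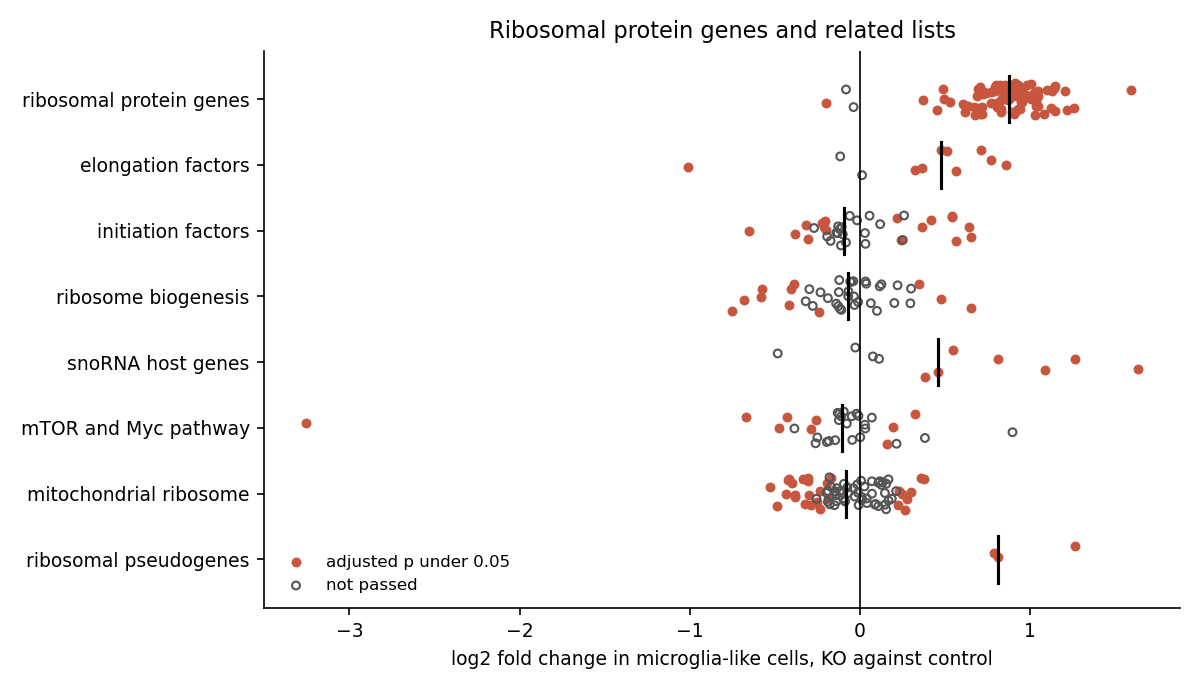
Log2 fold change of KO against control microglia (x axis) for each gene of the ribosomal protein list and of 7 related lists (rows), filled where edgeR's adjusted p is under 0.05, with the median of the list as a bar. The medians are 0.88 for the ribosomal protein genes and between -0.10 and -0.07 for the initiation, biogenesis, mTOR and Myc, and mitochondrial ribosome lists.

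Other cell types of the control mice had larger shares than microglia. The share was 13.4% to 15.3% in CAMs, 22.1% to 25.1% in T cells and 27.0% to 29.2% in monocytes, against 6.47% to 6.87% in microglia, and none of these 4 ranges overlapped. The monocyte cluster was mixed, as 70.0% to 77.8% of its control cells held a UMI of a dendritic cell marker. Its control cells without one, which were shallower, had a share of 15.4% to 24.1%, overlapping the T cells. The monocyte values and counts here are those of this mixed cluster. B cells held 22.2% and 20.6% in the 2 control mice with at least 10 of them. Granulocytes stood lowest, at 4.69% in 1 control mouse, and proliferating cells, which were led by the myeloid progenitor genes Elane, Prtn3 and Mpo, held 26.2% and 24.3%.

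Gene by gene in control mice, T cells exceeded microglia in 81 of 84 members with edgeR's quasi-likelihood test, against 17.2% of all genes, and 0 were lower, against 17.4%. DESeq2 called 81 higher and 0 lower, and 81 had an unadjusted p under 0.05. The median log2 fold change was 1.95. Rpsa was again furthest apart, at 4032, 4471, 5481 and 4265 CPM in T cells and 622, 610, 656 and 596 CPM in microglia (values scaled within this comparison), a log2 fold change of 2.89 or 7.41-fold. The next were Rps15a at 2.59, Rps18 at 2.58 and Rpl12, a protein near the base of the stalk, at 2.53. Rpl7l1 (0.16), Rps19bp1 (0.35) and Rpl39l (1.44, SE 0.810) did not pass. The T cell sums held 7384 to 8499 CPM of microglia markers in the controls, so RNA of microglia was present in them.

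The other types gave like counts. In CAMs 81 of 83 members were higher than in microglia, against 16.6% of all genes, with a median of 1.29, and in monocytes 81 of 83, against 21.8% (48.6% in either direction), with a median of 2.60. In B cells 78 of 84 were higher, against 5.07%, with a median of 1.26, but only 2 control mice entered, with sums of 37202 and 43817 UMIs. The median over all genes was -1.22 in B cells, against -0.04 in CAMs and -0.25 in monocytes, so the member medians are not on a like scale. A block for the animal took the B cell count to 0 members (54 at an unadjusted p under 0.05) and 0 of all 12151 genes.

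Between genotypes, the member share did not overlap in T cells and monocytes, with opposite signs, and overlapped in CAMs. Whether the change in CAMs differs from that in microglia was not tested. These comparisons rest on far fewer cells: 129 to 289 CAMs, 115 to 233 monocytes and 133 to 175 T cells per genotype. In T cells the share was 22.1% to 25.1% in the controls and 25.2% to 27.4% in the KO mice, a difference of 2.77 points in which the highest control (25.148%) and the lowest KO mouse (25.171%) nearly touched. Microglia markers in these T cell sums were at 7384 to 8499 CPM in the controls and 3009 to 5007 CPM in the KO mice. In microglia themselves these markers were also lower in the KO mice, at 22872 to 23280 and 9072 to 13487 CPM. The fall need not mean less microglia RNA. P2ry12 had medians of 973 CPM in control and 241 CPM in KO T cell sums, against 2733 and 741 CPM in microglia. Microglia RNA was thus present in the T cell sums of both genotypes. The T cell difference and the interaction below are of these mixed sums. Markers of natural killer cells in the T cell sums were at 1107 to 1954 and 1551 to 3331 CPM. The part of both kinds of markers was not tested.

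In T cells 1 of 82 members was higher in the KO mice, against 1.34% of all genes, and 0 were lower, against 2.7% (4.03% in either direction), while 40 had an unadjusted p under 0.05 and DESeq2 called 4 higher and 0 lower. The call was Rpsa, at 3731, 4122, 4964 and 3977 CPM in the controls and 5959, 5369, 6234 and 6082 CPM in the KO mice, with a log2 fold change of 0.49 and edgeR adjusted p = 0.00302. Its groups did not overlap. The median over the members was 0.21, and 81 of 82 values were above 0. Without control replicate 3, the highest control, 10 members passed.

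The difference in T cells was set against that in microglia by the interaction of genotype and cell type, over the same 8 mice. It was negative and past the threshold in 70 of 84 members, against 2.14% of all genes, that is, the KO rise was smaller in T cells. In the other direction 0 members passed, also with DESeq2, against 0.379% of all genes (2.52% in either direction), and 78 members had an unadjusted p under 0.05. The median interaction was -0.69. All 31 small subunit genes, 36 of 43 large subunit genes, 2 of 3 stalk genes and 1 of 6 paralogs (Rpl22l1) passed. The largest were those of Rpsa (-1.12), Rpl36a (-1.11), Rpl23 (-1.04) and Rps28 (-1.02). The count fell to 46 without control replicate 1.

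In CAMs, which also express Cx3cr1, the share was 15.3%, 13.4%, 13.8% and 13.4% in the controls and 17.2%, 12.8%, 18.2% and 11.7% in the KO mice. The groups overlapped, the KO mice spread more widely, and the difference of the means was 1.00 points. Single mice decided this value: it was 0.264 points without KO replicate 1, -0.0771 without KO replicate 3, 1.71 without KO replicate 2 and 2.10 without KO replicate 4. The median log2 fold change over the members was 0.12, and -0.0014 without KO replicate 1. With edgeR's test 0 of 82 members were higher (1 without KO replicate 2 or without KO replicate 4), against 0.555% of all genes, and 0 lower, against 0.468% (1.02% in either direction). Rpsa was the 1 member with an unadjusted p under 0.05, at 1423 to 1858 CPM in the controls and 1928 to 3866 CPM in the KO mice (log2 fold change 0.87, adjusted p = 0.057), and DESeq2 called 1 member higher and 0 lower. Arpc4 in these CAMs was at 165 to 218 CPM in the controls and 193 to 243 CPM in the KO mice, so the ranges overlapped and the KO mice were not the lower group.

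In monocytes the members went the other way. The share was 27.0% to 29.2% in the controls and 19.0% to 23.4% in the KO mice, a difference of -6.34 points without overlap. By edgeR's test 66 of 82 members were lower in KO monocytes, against 4.38% of all genes, and 0 were higher, against 2.67% (7.05% in either direction), while 77 had an unadjusted p under 0.05 and DESeq2 called 64 lower and 0 higher. The median log2 fold change was -0.56. The 66 were 38 of 43 large subunit genes, 24 of 31 small subunit genes, the 3 stalk genes and 1 of 5 paralogs, and Rpl14, with -0.83, had the largest change that passed, followed by Rpl39 (-0.77). Rpl12 was at 2016 to 2373 CPM in the controls and 1215 to 1558 CPM in the KO mice, without overlap. Rpsa was at 5009 to 5743 and 3359 to 6610 CPM, with a log2 fold change of -0.02 and edgeR adjusted p = 0.974. The count fell to 32 without control replicate 1, to 33 without control replicate 4 and to 32 without KO replicate 3.

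The monocyte cluster was not of the same makeup in the 2 groups. A UMI of a dendritic cell marker was present in 70.0% to 77.8% of its control cells and 23.8% to 50% of its KO cells, monocyte markers summed to 5839 to 7572 and 7960 to 11162 CPM, and the median depth was 6426 to 8318 and 3213 to 6063 UMIs per cell. In cells with a dendritic marker UMI the member share was 28.3% to 30.1% in the controls and 19.8% to 24.5% in the KO mice, without overlap, and in cells without it 15.4% to 24.1% and 18.4% to 22.4%, with overlap. Among cells of 3000 to 10000 UMIs it was 27.0% to 31.2% and 19.8% to 23.7%. These subsets are small: 5 to 52 cells per KO mouse and 14 to 28 per control mouse had such a UMI, 7 to 63 and 6 to 8 had none, and the depth window held 9 to 81 and 10 to 24. Detection of the marker also moved with depth, as control cells with it had medians of 7117 to 8838 UMIs and those without it 2272 to 3069, so depth and cell type cannot be told apart in this split. In the KO mice these medians were 7109 to 10332 and 3131 to 5218 UMIs. The part of the makeup in the difference was not tested beyond these values.

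The interaction of genotype with monocytes against microglia, added after the data had been seen, was negative and past the threshold in 81 of 85 members, against 5.12% of all genes, with a median of -1.43. In the other direction 0 members passed, against 2.26% (7.38% in either direction). This interaction used the same microglia sums as the interaction with T cells, so the counts are not independent. It also holds the differences in makeup and depth of the monocyte cluster given above, whose part was not tested.

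**Figure D5:**
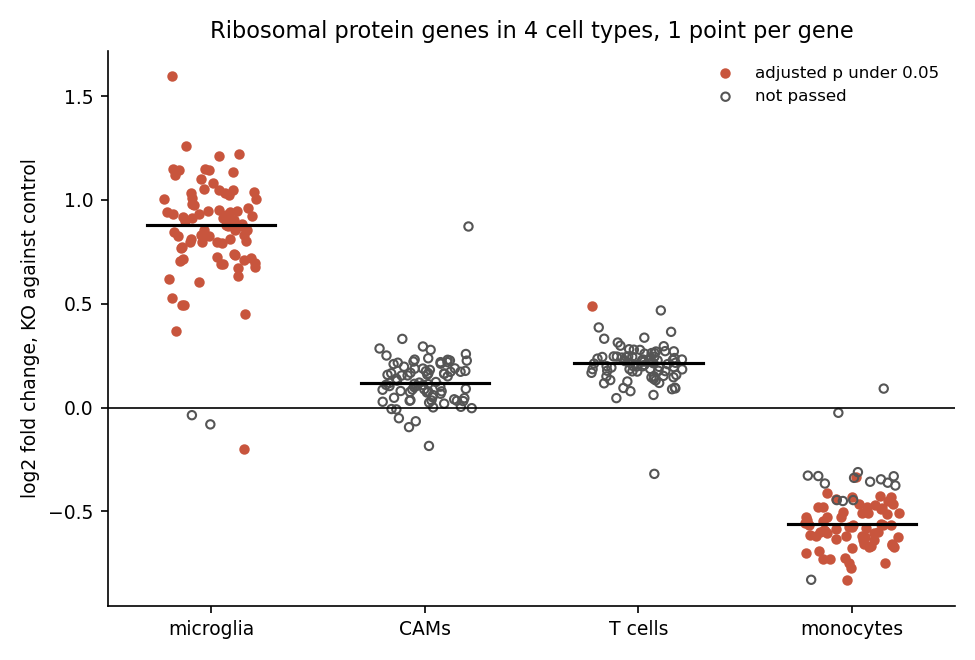
Log2 fold change of KO against control mice (y axis) for each ribosomal protein gene tested in microglia, CAMs, T cells and monocytes (x axis), filled where edgeR's adjusted p is under 0.05, with the median as a bar. The medians are 0.88, 0.12, 0.21 and -0.56, and Rpsa is the highest point in the first 3 types.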

How the data were processed

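CD45+ brain cells of 8 mice were measured by 10x 3′ single-cell RNA-seq in 1 pool with 1 tag per mouse, and the mouse of each tag was taken from the labels. The authors aligned reads to mm10 with Cell Ranger (7.1.0 per the file headers and methods, 6.1.2 in the submitters' processing notes), assigned cells to mice by tag and deposited raw UMI counts, without normalization or ambient correction. Counting of introns was not given in the sources used here. Of each mouse's barcodes, 98.9% to 100% were led by the tag of its label. Cells with several tags are not in the tables of the mice, and no doublet caller was run.

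Cells were clustered with Seurat 5.3.0 in R 4.3.3 (20 principal components of 9920 variable genes, from which 80 members had been removed, Louvain resolution 0.8) and named from marker lists. Another class than microglia needed a median over its markers at least 1 (log2, prior of 10 CPM) above the other clusters, and microglia needed at least 3 markers by that margin above lymphocyte and granulocyte clusters. These margins, and the leaving out of shallow clusters with no marker of their class among the leading 10 genes, were set with the clusters known. UMIs were summed per mouse and type (at least 10 cells). The test was the quasi-likelihood test of edgeR 4.0.16 on TMM-scaled sums after filterByExpr, with p-values adjusted by Benjamini-Hochberg over all genes tested. CPM were scaled by total and TMM factor within each comparison, and those of markers, Arpc4 and sex-linked genes by total alone. The share over members was given no p-value. DESeq2 1.42.0 was an alternative, as were other scalings, filters, cells, a replicate block and leaving out each mouse. The edgeR step was tested on simulated data.

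The members, gene lists and comparisons were chosen with earlier results of these data known. Named were the 8 largest rises and falls past the threshold without overlap, the stalk genes, paralogs, Rps19bp1 and untested members, the 4 largest differences in T cells, the 2 largest changes per related list and the 3 genes most like the summed members. One gene of a related list is not reported here. Other genes were chosen after their values were seen. Gene positions are from GENCODE vM21, and sequences from RefSeq. Replicate numbers do not pair mice across genotypes, whereas sums of 2 cell types from 1 animal are paired, and a block for the animal was an alternative there. Bulk RNA-seq and imaging were not analysed here.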

Additional observations from a re-analysis of the deposited data

Results flagged for a closer look

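Of 74 groups of mice checked for 1 mouse far from the rest, 1 was past the limit, where chance gives about 1 in 20 groups. It was Zfas1 in KO microglia, at 99.0 CPM in KO replicate 2 and 118 to 120 CPM in the other 3 KO mice, all above the controls.

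The difference between genotypes in T cells and in monocytes was not the same as in microglia by the test of the interaction itself (edgeR, quasi-likelihood, Benjamini-Hochberg adjusted). It differed between T cells and microglia in 70 members and between monocytes and microglia in 81 members. Each had the smaller or the opposite change in the type other than microglia. The T cell sums held microglia RNA, and the monocyte cluster differed in makeup and depth between genotypes. The part of either in these counts was not tested.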

How the results depend on the processing

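The count of 81 members higher in KO microglia was the same under 22 other settings of the fit and also past a fold change of 1.2, with member medians over the 22 of 0.77 to 1.39 and a shift of the median of all genes of -0.11 to 0.03. Members lower in KO microglia (1 as reported) numbered 0 with DESeq2, with no filter on low counts, in cells of 2000 to 5000 UMIs, with scaling by genes of at most 50 kb and past a fold change of 1.2, 2 with the total of UMIs alone, and 0 to 1 on leaving out each mouse. The cause was not tested. The share of member UMIs in microglia, KO minus control (4.91 points), was 5.95 without the 50 other most abundant genes, 5.46 and 6.56 with ambient RNA subtracted at 10% and 25%, 6.90 without genes over 50 kb, and 4.67 to 5.13 on leaving out each mouse. In monocytes the difference in share was -8.45 points with 25% ambient RNA subtracted. Ambient subtraction at 1 fraction for all mice, and a total with genes left out, widen a difference in points by construction.

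Same-numbered mice did not deviate together (correlations of -0.07 to -0.01), so the replicate block pairs no mice across genotypes, and it left 81 members higher in KO microglia. As a block for the animal it called 0 members in B cells, with 2 control mice, and moved no other count of members by over 1.5 times. On leaving out each mouse, the interaction in T cells was past the threshold in 46 to 70 members, 1 to 10 were higher in KO T cells (4 with DESeq2), 0 to 1 in KO CAMs (1 with DESeq2) and 32 to 64 lower in KO monocytes. Rpl39l, genotype microglia, turned to 0.10 and 0.36 without control replicate 1 and 2, 0.25 and 0.22 without KO replicate 1 and 3 (-0.55 to 0.36 over all mice left out), 0.012 with the 3 unnamed clusters and 0.0021 with scaling by genes of at most 50 kb. The cells with the unnamed clusters, the scaling by short genes, the fit relative to the members, the monocyte interaction and the share alternatives of other types were chosen after seeing the data. Intervals are not given for shares, and depth limits the types with few cells and the genes at a few CPM.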

Other observations

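Over the 8 microglia sums, the genes outside the rule whose log2 CPM followed that of the summed members most closely were Fau (Pearson r = 0.999), Chst2, a sulfotransferase gene (0.999), and Eef1b2 (0.998). This is a description over 8 mice of 1 pool in 2 groups, in which the gap between the genotypes sets most of the likeness: 767 of 12555 genes outside the rule had r over 0.95. Chst2 was at a mean of 3.74 CPM in the controls and 50.1 CPM in the KO mice.

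Some types had too few mice for a test between genotypes. The member share of B cells was 18.8% in the 1 KO mouse with at least 10 cells, against 22.2% and 20.6% in the control mice, and that of granulocytes 4.33% against 4.69% with 1 mouse each. Proliferating cells held 18.6%, 15.6% and 9.82% in 3 KO mice and 26.2% and 24.3% in 2 control mice. The proliferating cells were not of the same makeup in the 2 groups. Microglia markers summed to 8078 to 10934 CPM in the KO mice and 3083 to 4052 CPM in the controls. Monocyte markers summed to 234 to 1031 CPM in the KO mice and 2864 to 3450 CPM in the controls. The part of this makeup in the difference was not tested.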
